A study of Drosophila melanogaster with 4 samples.

Results

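The genes described here are shf and 9 other genes of the Hedgehog pathway, hh, disp, ptc, smo, ci, dally, dlp, ihog and boi, found by their exact names among the 16680 genes of a table of mRNA levels in fly heads. All 10 were listed in the table. shf was chosen by its higher FPKM in these same libraries, so its difference between the groups is described without a test. The other 9 genes were selected on their place in the pathway.

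The libraries came from heads of adult male flies labelled Kr[If-1], a gain-of-function allele of the zinc finger gene Krüppel with which eye outgrowths appear when development is perturbed. The stock also carried the b1 allele, and the parents of the flies had been exposed to Cr(VI) in the food, at 10 µM according to the methods. Flies without and flies with phenotypic variations of the eye were compared, with 2 biological repeats of each kind and RNA of 10 pooled heads per library. Both groups thus shared genotype and sex. The sample titles do not give the exposure of the parents for each library, so a shared parental exposure is read from the description of the study. The sources used here do not state the age of the flies. Each group is a pool of whole heads, in which fewer cells of a type and less RNA per cell cannot be told apart. The values are FPKM, fragments scaled by the length of the transcript and the depth of the library, so levels of different genes can be compared per length.

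Hedgehog is a secreted, lipid-modified signal. Dispatched (disp) releases it from the producing cell, and it then moves through the matrix with the help of Shifted (shf), a secreted protein with a WIF domain, and of the glypicans Dally and Dlp, which carry heparan sulfate chains. On the receiving cell Ihog and Boi act as coreceptors with Patched (ptc). Binding relieves the block that Patched puts on Smoothened (smo), and the transcription factor Cubitus interruptus (ci) then activates targets, ptc among them. In the developing eye Hedgehog drives the wave of photoreceptor differentiation, and photoreceptor axons carry it into the brain.

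The labels name the tissue as head, while the text on the series design names ovaries as well as heads. The photoreceptor opsin gene ninaE was at 773 and 544 FPKM without and 948 and 665 FPKM with phenotype, and all 10 photoreceptor, 6 neuron and 6 glia markers were above 0. Of the 6 neuron markers 4 were higher with phenotype without overlap (summed level 733 to 773 FPKM without and 806 to 856 FPKM with phenotype). Of the 10 photoreceptor markers 3 were higher and 0 lower in this way, and of the 6 glia markers 2 were higher and 1 lower. The male-specific RNAs roX1 and roX2 were abundant, and with msl-2 all 3 male markers were higher with phenotype without overlap (369 to 380.1 FPKM without and 442 to 498 FPKM with phenotype), while the yolk protein genes Yp1, Yp2 and Yp3 together reached 5.53 to 7.95 FPKM. Of 8 muscle markers 7 were lower with phenotype with no overlap between the groups (summed level 4781 to 5182 FPKM without and 3326 to 3586 FPKM with phenotype). Of 6 cuticle markers 4 were lower in the same way (4163 to 4514 FPKM without and 2230 to 3128 FPKM with phenotype). For comparison, of the 10194 genes that averaged 1 FPKM or more, 41.3% were higher and 18.3% lower without overlap. Digestive tract markers summed to 336 FPKM in repeat 1 without phenotype and to 40.9 to 105 FPKM in the other libraries. The part of these marker differences in the values below was not tested. The number of reads is unknown from FPKM. The size of the lowest values gave relative depths of 0.969 to 1.10, a rough estimate because these values are rounded to 2 decimals.

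shf was the member with the largest difference between the groups, and it was at about the same level in repeats of a group. Its FPKM was 11.3 and 11.1 in repeats 1 and 2 of the flies without phenotype, against 22.4 and 19.99 in those with phenotype. The groups did not overlap, and the lowest value with phenotype was 1.77-fold the highest value without. The means were 11.2 ± 0.148 FPKM and 21.2 ± 1.69 FPKM (SD, n = 2), a ratio of 1.90. On log2(FPKM + 1), the scale used for all differences below, shf was higher by 0.86. Of the 10194 genes that averaged 1 FPKM or more, 116 (1.14%) had a larger positive difference, and of the 6549 genes that averaged 10 FPKM or more, 65 did. Leaving out any of the libraries, or changing the other settings tried, gave differences of 0.79 to 0.94. This range comes from the same libraries by which shf was chosen, and is no separate support for its difference.

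**Figure D1:**
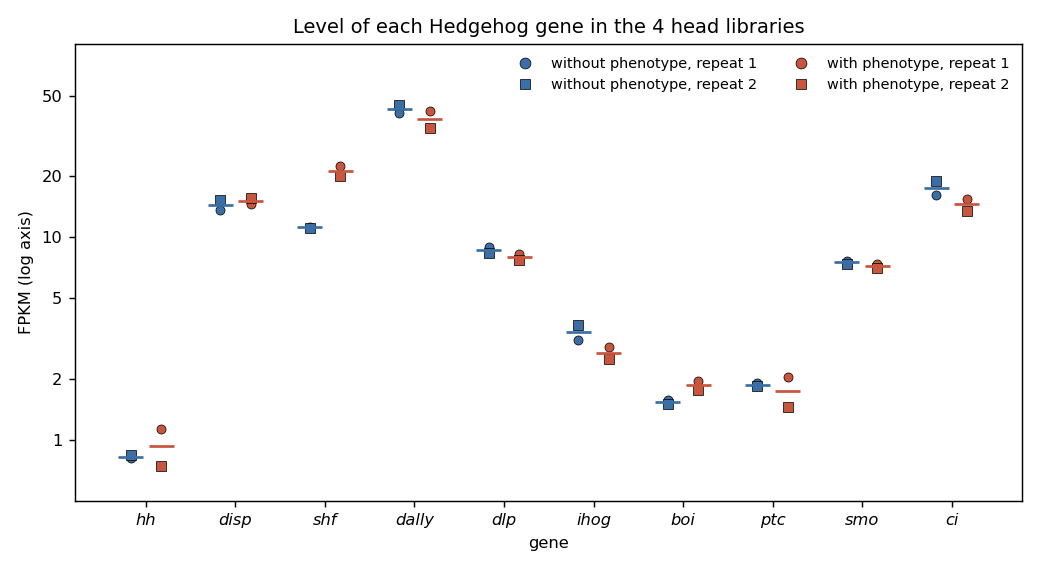
FPKM of the 10 genes in each library on a log axis, with blue for flies without and red for flies with phenotype, circles for repeat 1, squares for repeat 2 and lines for the mean of 2 libraries. shf lies at 11.1 to 11.3 FPKM without and 19.99 to 22.4 FPKM with phenotype, while the values of the other genes lie close together or overlap.

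The shf gene spans 8197 bases of the X chromosome (dm6, X from 6771463 to 6779659, minus strand) and has 4 RefSeq transcripts. Coq7, an enzyme gene of ubiquinone synthesis on the opposite strand, overlaps this span without sharing any exonic base with shf. Coq7 was at 43.6 and 39.4 FPKM without and 47.3 and 52.6 FPKM with phenotype. The next protein-coding genes on either side were sov, at 10.7 and 11.3 FPKM without and 12.7 and 13.3 FPKM with phenotype, and C3G, at 27.2 and 27.7 FPKM without and 31.0 and 32.5 FPKM with phenotype. All of these neighbors had higher FPKM with phenotype without overlap, as did 41.3% of all genes tested, and each by a smaller ratio than shf.

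The ligand gene was expressed at a low level and its release factor at a moderate one, and neither separated the groups. hh, the ligand gene (3R from 23128169 to 23141906), was at 0.81 and 0.84 FPKM without and 1.13 and 0.74 FPKM with phenotype. The repeats with phenotype lay on either side of those without. With a mean of 0.88 FPKM, hh fell below the filter of 1 FPKM and was not tested, and without the filter its difference was 0.077 (95% interval -0.28 to 0.43, adjusted p = 0.76 from limma). disp (3R from 5849697 to 5856311) was at 13.7 and 15.2 FPKM without and 14.7 and 15.6 FPKM with phenotype. The groups overlapped, and the difference of 0.063 (95% interval -0.16 to 0.29) did not pass the test (adjusted p = 0.66 from limma).

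Of the glypicans, dally was the most abundant of the 10 genes in every library. dally (3L from 8827505 to 8891192) was at 40.9 and 44.8 FPKM without and 42.2 and 34.6 FPKM with phenotype. Repeat 2 with phenotype was the lowest and repeat 1 with phenotype lay between the repeats without, so the groups overlapped (difference -0.16, 95% interval -0.49 to 0.17, adjusted p = 0.47 from limma). The difference was -0.020 without repeat 2 with phenotype and -0.30 without repeat 1 with phenotype. dlp (3L from 14632601 to 14671609) was at 8.97 and 8.32 FPKM without and 8.30 and 7.70 FPKM with phenotype. Its groups were apart by only 0.02 FPKM, and the difference of -0.10 (95% interval -0.31 to 0.11) did not pass (adjusted p = 0.48 from limma). The glypican genes are at different levels, and dally was at 4.49 to 5.38 times the FPKM of dlp in the 4 libraries, with overlap between the groups.

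The coreceptor genes ihog and boi, whose products act in part redundantly, had differences of opposite sign. ihog (2L from 6945464 to 6948808) was at 3.11 and 3.68 FPKM without and 2.88 and 2.51 FPKM with phenotype, and the groups did not overlap. boi (X from 2444167 to 2470043) was at 1.58 and 1.51 FPKM without and 1.96 and 1.76 FPKM with phenotype, again without overlap. Neither passed the test (ihog difference -0.25, 95% interval -0.58 to 0.078, adjusted p = 0.30, and boi difference 0.17, 95% interval -0.17 to 0.51, adjusted p = 0.46 from limma). Within a library, where any scaling of the library cancels, ihog was at 1.97 and 2.44 times the FPKM of boi without and at 1.47 and 1.43 times with phenotype. These ratios did not overlap between the groups. The share of all gene pairs whose ratios separate in this way was not computed. boi also shares 124 exonic bases with the more abundant gene z, as described below. With 2 libraries a group, the smallest two-sided p of an exact permutation test is 0.333, so no test of the ratio was run.

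For the receptor and transducer genes the differences were small and did not pass the test. ptc (2R from 8649649 to 8665223), the Hedgehog receptor gene and itself a target of the pathway, was at 1.90 and 1.84 FPKM without and 2.04 and 1.45 FPKM with phenotype. The repeats with phenotype lay on either side of those without (difference -0.073, 95% interval -0.49 to 0.35, adjusted p = 0.80 from limma), and without repeat 2 with phenotype the difference was 0.083. smo (2L from 277582 to 282167), the gene of the transmembrane transducer, was at 7.67 and 7.42 FPKM without and 7.38 and 7.08 FPKM with phenotype (difference -0.054, 95% interval -0.25 to 0.14, adjusted p = 0.66 from limma). Its groups were apart by 0.04 FPKM.

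ci (4 from 47710 to 57041), the transcription factor gene, was lower with phenotype by about as much as ihog, without passing the test. It was at 16.1 and 18.9 FPKM without and 15.5 and 13.5 FPKM with phenotype, and each library with phenotype was below each without. The means were 17.5 ± 1.98 FPKM and 14.5 ± 1.39 FPKM (SD, n = 2). The difference of -0.25 (95% interval -0.56 to 0.049) did not pass (adjusted p = 0.27 from limma), and it ranged from -0.36 to -0.14 over the settings and libraries left out. An antisense RNA gene, asRNA:CR43957, shares 53 exonic bases with ci, and it was at 7.59 and 7.78 FPKM without and 4.93 and 6.16 FPKM with phenotype.

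**Figure D2:**
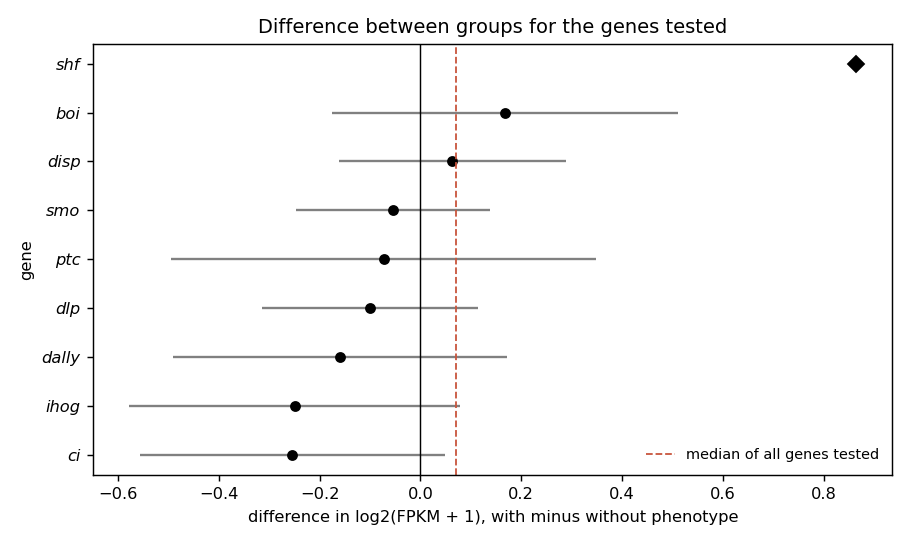
Difference in log2(FPKM + 1) between flies with and without phenotype for the 9 genes tested, with 95% intervals from limma as gray lines. shf, chosen by its difference, is drawn as a diamond without an interval, the intervals of the other 8 genes all hold 0, and the dashed line is the median of all genes tested (0.070).

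None of the 8 tested genes other than shf passed limma's test at an adjusted p of 0.1 (0 also at an unadjusted p under 0.05). Of all 10194 genes tested, 9 (0.0883%) passed, 6 higher (0.0589%) and 3 lower (0.0294%), and 22.7% were at an unadjusted p under 0.05. Of the 8 genes, 1 (boi) was higher with phenotype without overlap, against 41.3% of all genes tested, and 4 (dlp, ihog, smo and ci) were lower without overlap, against 18.3%. The median difference over all genes was 0.070. With libraries rescaled by median ratios that median was -0.006, the shares over all genes were 29.2% in either direction, and dally joined the genes that were lower without overlap. The difference of disp was then -0.015. A gene that did not pass is not shown to be unchanged, and the intervals given above bound what these libraries allow.

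By level, the 10 genes fell into nearly the same order in both groups except for shf. Without phenotype the order from high to low was dally, ci, disp, shf, dlp, smo, ihog, ptc, boi and hh, and the ranges of neighbors in this order did not overlap. With phenotype shf lay second, at 19.99 to 22.4 FPKM, below dally and above disp at 14.7 to 15.6 FPKM. There the ranges of disp and ci overlapped, as did those of boi and ptc, so these pairs have no order beyond their spread. Among all genes above 0, the mean FPKM of dally stood at percentile 84.5, that of shf at percentile 67.1, and that of hh at percentile 33.4.

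Within each library the ratio of shf to every one of the other 9 genes was higher with than without phenotype, without overlap. shf was at 0.70 and 0.58 times the FPKM of ci without and at 1.44 and 1.48 times with phenotype. Against disp the ratios were 0.82 and 0.73 without and 1.53 and 1.28 with phenotype. Against dally they were 0.28 and 0.25 without and 0.53 and 0.58 with phenotype. These ratios restate the difference by which shf was chosen, but do not depend on how the libraries are scaled. By contrast the ratio of ptc to smo was 0.248 in both libraries without and 0.276 and 0.205 with phenotype, on either side of that value.

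**Figure D3:**
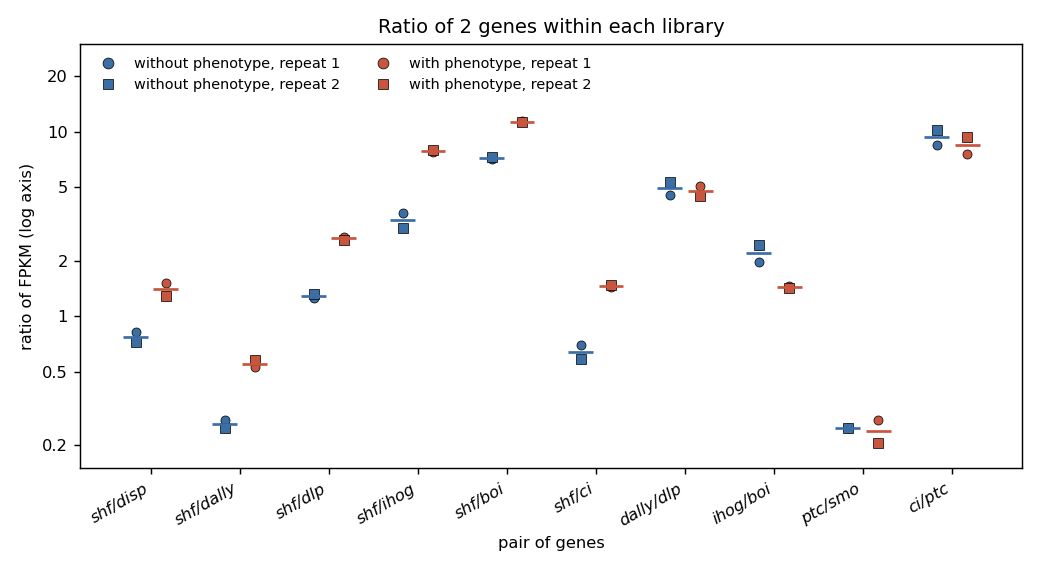
Ratio of FPKM of 2 genes within each library on a log axis, with blue for flies without and red for flies with phenotype, circles for repeat 1, squares for repeat 2 and lines for the mean. The 6 ratios with shf and the ratio ihog/boi do not overlap between the groups, while dally/dlp, ptc/smo and ci/ptc do.

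The genes whose pattern over the 4 libraries was most like that of shf were Lsd-1, Ela (now Elal), CG10026, snoRNA:Me28S-C3227b and spin. Likeness was the root mean square difference of log2(FPKM + 1) after centering each gene over the libraries, and it was 0.018 for Lsd-1 and 0.060 to 0.076 for the other 4 genes. Lsd-1, which encodes a protein of the lipid droplet surface, was at 97.0 and 96.2 FPKM without and 192 and 167 FPKM with phenotype. spin, which encodes a lysosomal membrane transporter, was at 41.8 and 47.1 FPKM without and 87.5 and 73.6 FPKM with phenotype. Of the other 9 members boi was the nearest, at 0.35. With only 4 libraries many genes can have a like pattern, and no test was made.

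Drosophila has 3 further genes for WIF domain proteins on the list used here, the Ryk receptor genes drl, dnt and Drl-2, which act in axon guidance. All had higher FPKM with phenotype without overlap, as did 41.3% of all genes tested, and by less than shf. dnt was at 4.53 and 4.16 FPKM without and 5.69 and 5.76 FPKM with phenotype (difference 0.33, standard error 0.085, adjusted p = 0.16 from limma). drl was at 12.3 and 11.9 FPKM without and 13.99 and 15.7 FPKM with phenotype (adjusted p = 0.18 from limma). Drl-2 was at 8.75 and 9.22 FPKM without and 9.87 and 11.2 FPKM with phenotype (adjusted p = 0.25 from limma). None passed the test.

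A list of 63 other genes of the pathway, all found in the table, was read from the same fit. Of these, 61 reached the filter and 2 targets, stg and ato, did not. None passed (0 higher and 0 lower, against 0.0883% of all genes). At an unadjusted p under 0.05 from limma were 9 of the 61, all higher. Of all 10194 genes tested, 1631 were higher and 680 lower at that level. The differences were positive for 37 and negative for 24, with a median of 0.041 beside 0.070 over all genes. With rescaled libraries 26 were positive and 35 negative, and over all genes the positive share went from 62.7% to 48.4%. Without overlap, 26 of the 61 were higher and 11 lower, shares near those of all genes, and with rescaled libraries 15 were higher and 23 lower (24.6% and 37.7%, against 29.2% each over all genes).

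Lipoproteins, which carry Hedgehog and other lipid-linked signals, and the proteins that load them had the 2 largest differences of the list, those of apolpp and Apoltp. apolpp (listed as Rfabg), the precursor of the main lipophorin apolipoproteins, was at 317 and 153 FPKM without and 587 and 460 FPKM with phenotype. All libraries with phenotype lay above those without, although the repeats without differed strongly from each other (difference 1.23, standard error 0.37, adjusted p = 0.18 from limma). When repeat 1 without phenotype was left out, which left 1 library in that group, the difference of apolpp was 1.75. Without repeat 2 without phenotype the difference of apolpp was 0.71. Its adjusted p from limma was over 0.1 with rescaled libraries, with the other pseudocount and filters, without trend and with a replicate block. These settings kept all libraries, and the statement does not cover the fits with a library left out. Apoltp, a lipid transfer particle gene, was at 21.7 and 23.1 FPKM without and 41.0 and 33.1 FPKM with phenotype, and Mtp, which loads lipid on lipoproteins, was at 30.4 and 24.3 FPKM without and 42.9 and 36.6 FPKM with phenotype (adjusted p = 0.13 and 0.17 from limma). The receptor genes LpR1, LpR2 and mgl had differences of 0.23, -0.052 and -0.22, with adjusted p from 0.31 to 0.71 from limma.

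Lipophorin is made by the fat body, of which the head holds a layer. The 5 fat body markers found in the table, apolpp among them, summed to 1036 and 2248 FPKM without and 1130 and 1619 FPKM with phenotype as the lowest and highest library of each group. Of these 5, 2 (apolpp itself and FASN1) were higher and 2 (Fbp1 and Npc2b) lower with phenotype without overlap, against 41.3% and 18.3% of all genes tested. The part of fat body in the lipoprotein values was not tested.

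Heparan sulfate is the sugar chain of the glypicans, and most genes of its synthesis were slightly higher with phenotype as deposited. Of 12, 11 had a positive difference, with a median of 0.13, and with rescaled libraries 7 did, with a median of 0.049. The positive share over all genes tested was 62.7% as deposited and 48.4% with rescaled libraries. Hs3st-B, a sulfotransferase that acts late on the chain, was at 6.16 and 5.84 FPKM without and 8.51 and 9.74 FPKM with phenotype (difference 0.53, standard error 0.093, adjusted p = 0.13 from limma). Hs3st-A, the most abundant of the 12, was at 29.6 and 32.4 FPKM without and 32.9 and 36.6 FPKM with phenotype (adjusted p = 0.37 from limma).

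Of 6 other extracellular regulators, 3 had a positive and 3 a negative difference, and with rescaled libraries 2 and 4. Positive shares over all genes tested were 62.7% and 48.4%. trol, the perlecan gene, was at 60.0 and 54.4 FPKM without and 53.7 and 35.8 FPKM with phenotype, the low value being again in repeat 2 with phenotype (adjusted p = 0.34 from limma). Cow (listed as CG13830), the most abundant, was at 121 and 124 FPKM without and 127 and 130.3 FPKM with phenotype (adjusted p = 0.65 from limma). rasp, the acyltransferase that adds palmitate to Hedgehog, was at 3.22 and 2.88 FPKM without and 2.97 and 3.22 FPKM with phenotype (adjusted p = 0.94 from limma), with overlapping groups.

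None of the genes of the intracellular cascade passed. Beside the counts below, 62.7% of all genes tested had a positive difference as deposited and 48.4% with rescaled libraries. In the group of Smoothened regulators and the complex that holds Ci, 6 of 9 had a positive difference. Usp8 (listed as Ubpy), a deubiquitinase that stabilizes Smoothened, was at 18.1 and 16.4 FPKM without and 23.4 and 20.4 FPKM with phenotype (adjusted p = 0.19 from limma), and Gprk1, the most abundant, was at 38.9 and 39.2 FPKM without and 40.8 and 44.5 FPKM with phenotype (adjusted p = 0.41 from limma). Of 9 kinase and phosphatase genes 7 had a negative difference, the most negative being -0.19 for the protein kinase A subunit gene Pka-R1 (104 and 114.8 FPKM without, 97.3 and 94.4 FPKM with phenotype, adjusted p = 0.31 from limma). CkIalpha, a kinase of Ci and Smoothened, was at 170 and 174 FPKM without and 154 and 160 FPKM with phenotype (adjusted p = 0.41 from limma). With rescaled libraries 8 of these 9 had a negative difference. Of 7 genes of Ci degradation and transport 4 had a negative difference, and all 7 with rescaled libraries, with Roc1a, a ubiquitin ligase subunit, at 146 and 166 FPKM without and 136 and 139 FPKM with phenotype (adjusted p = 0.36 from limma).

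Of 13 genes that Hedgehog activates in imaginal discs, with means from 0.34 FPKM (ato) to 9.51 FPKM (dpp), 11 were tested and none passed, with 7 positive and 4 negative differences between -0.18 and 0.26. Without overlap, 4 were higher and 2 lower, against 41.3% and 18.3% of all genes, and with rescaled libraries 2 were higher and 4 lower, against 29.2% each. dpp, a BMP ligand and classical target, was at 9.84 and 10.1 FPKM without and 9.47 and 8.65 FPKM with phenotype (difference -0.12, adjusted p = 0.38 from limma). caup, an Iroquois homeobox gene, was at 2.40 and 2.68 FPKM without and 2.95 and 3.56 FPKM with phenotype (difference 0.26, adjusted p = 0.29 from limma). Neither passed, like ptc above.

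**Figure D4:**
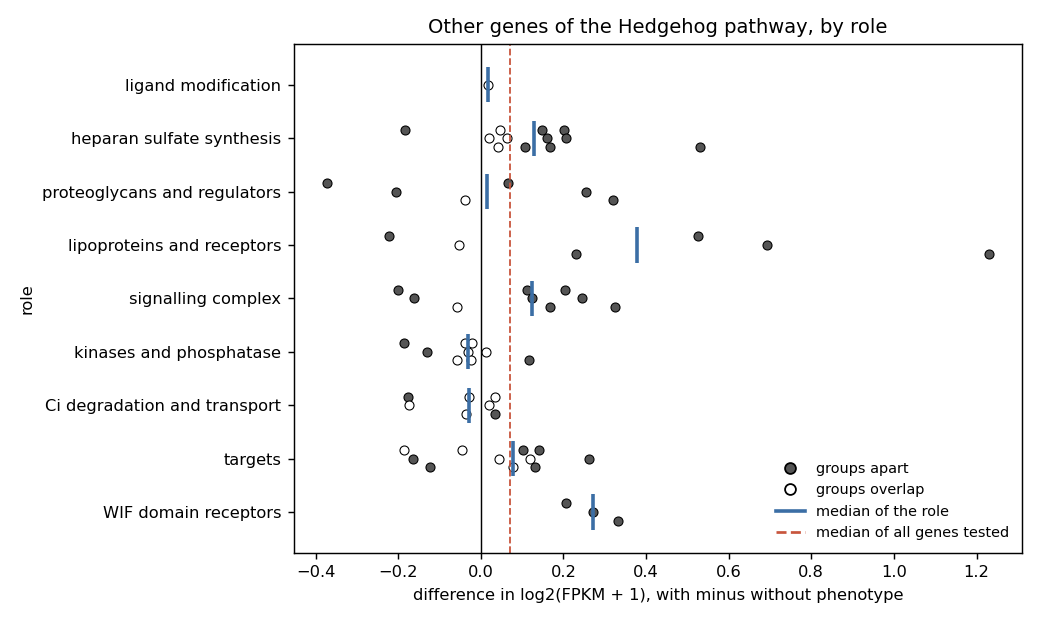
Difference in log2(FPKM + 1) with minus without phenotype for the 61 tested genes of the pathway list and the 3 WIF domain receptor genes, by role. Each circle is a gene, filled where the groups do not overlap, blue lines are medians of a role and the dashed line is the median of all genes tested (0.070). apolpp lies farthest to the right at 1.23.

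Some members share exonic sequence with a gene on the other strand, and the sources used here do not give whether reads were counted by strand. smo shares 498 of 4008 exonic bases with CG11601 and 587 with CG17078, which were at 17.7 to 21.2 FPKM and 9.61 to 12.3 FPKM. boi shares 124 of 5066 exonic bases with z, which at 15.6 to 18.1 FPKM was above boi. disp shares 92 exonic bases with CG34287, which was at 0.27 to 0.55 FPKM. Reads from these stretches may be assigned to either gene, so the levels of smo and boi carry this uncertainty.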

How the data were processed

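RNA from 10 heads per library was polyA-selected and sequenced as single-end reads (50 cycles). The authors used Bowtie 2 to align the reads to RefSeq mRNA (dm6) and RSEM for quantification. The table they deposited holds FPKM for each gene with 2 decimals, from which reads could not be recovered, and so it was not given a count test. The submitters' processing notes also name dm3 without a role, and the versions of these tools are not stated. EBSeq, the test named in the methods, cannot be run on FPKM.

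Genes that averaged 1 FPKM or more over the libraries were compared between the groups after a log2(FPKM + 1) transformation. The two-sided test was that of limma (version 3.58.1, R 4.3.3) with a mean-variance trend, its p-values were adjusted over all genes tested by Benjamini-Hochberg, and the threshold was 0.1. These fold changes understate the change of low genes. The fit was tested on simulated data. Of 16680 names, 16490 were matched to RefSeq symbols, and loci are from the Ensembl release 115 annotation in dm6 coordinates. Relative depth came from the lowest FPKM times length of genes with 1 transcript of 300 to 700 bases. No interval from counting error was computed.

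The members and gene lists were chosen with earlier results of these data known. Named genes of the wider pathway were the most abundant and the most changed of each role, any past the threshold, the WIF domain genes and the 5 most like shf. Apoltp, Mtp, LpR1, LpR2, mgl, stg and ato, and the neighbors and overlapping genes of members, fall outside this rule and were named after their values were seen. Of 6 fat body marker names, 1 was not matched. The repeats are called biological by the labels, but separate cultures are not described. Alternatives were another pseudocount, other filters, rescaled libraries, limma without trend, a replicate block and leaving out each library.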

Additional observations from a re-analysis of the deposited data

How the results depend on the processing

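The log2 difference of shf lay between 0.79 and 0.94 in all 11 alternatives tried. Since shf was chosen by its rise in these same libraries, a positive difference in each alternative is no separate support. dally, dlp, smo and ci (11 alternatives each) and ihog and boi (10 each) kept their direction and did not pass, with dally from -0.30 to -0.020 over the libraries left out. disp turned to -0.015 with rescaled libraries and to -0.008 without repeat 1 without phenotype, where its range over the libraries left out was -0.008 to 0.135. ptc ranged from -0.23 to 0.083 over the libraries left out and was positive only without repeat 2 with phenotype. rasp turned to -0.047 with rescaled libraries and ranged from -0.044 to 0.077 over the libraries left out, and Cow turned to -0.017 with rescaled libraries. The cause of these changes was not tested.

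The count of 9 genes past the threshold among all genes was 23 with a pseudocount of 0.1, 109 with a filter of 5 FPKM, 3 without a filter, 4 with rescaled libraries and 5 without trend. It was 509 without repeat 1 and 142 without repeat 2 of the flies without phenotype, and 0 without either repeat of those with phenotype (unadjusted p under 0.05 in 1525 and 817 genes), a range of 0 to 509. Of the other pathway genes, 0 passed with another pseudocount, other filters, rescaled libraries, no trend or a replicate block. These settings kept all libraries. For this list, no count is given from fits that left 1 library in a group, so 0 does not cover them. With a replicate block the count over all genes was 0 (unadjusted p under 0.05 from limma in 2070 genes). Same-numbered libraries deviated from their group means with a correlation of -0.13 across genes. With 2 libraries a group this value cannot decide whether the numbers pair the samples. A crossed replicate block, chosen after seeing the data, called 404 genes, 2 of them on the pathway list. Genes near 1 FPKM, hh, boi and ptc, are limited by depth, which is unknown.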
